A study of Mus musculus with 22 samples.

Results

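The proteasome subunits, their activators and the chaperones of the regulatory particle were followed as 41 genes (Psma1 to Psma7, Psmb1 to Psmb10, Psmc1 to Psmc6, Psmd1 to Psmd14 and Psme1 to Psme4), chosen by name. Of the 18193 genes with a probe set of their own, 40 were of this set. Psme2, the beta subunit of the activator PA28, has no probe set annotated to it alone and is not described. A gene with several probe sets is given by the one brightest on average over the 22 arrays, and a cross-hybridizing one was used only in the absence of any other.

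The proteasome is the chamber in which cells cut up proteins tagged with ubiquitin. Its 20S core is a stack of rings of alpha and beta subunits, of which only Psmb5, Psmb6 and Psmb7 carry the cutting sites of the constitutive form. Interferon-gamma and the constant programme of leukocytes bring in Psmb8, Psmb9 and Psmb10, which take the places of these subunits and form the immunoproteasome, a source of peptides for MHC class I. The 19S cap recognises, unfolds and admits the tagged substrates, and the 11S caps (PA28) and PA200 open the core without ubiquitin.

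The values are probe set intensities of Affymetrix arrays on 3 samples of antibody-treated cells, 3 samples of untreated cells and 16 lungs. Both cell groups are the dye-excluding side population, sorted from A2C12, a line from a lung tumour of a C57BL/6 mouse transgenic for c-myc and c-raf. The treated cells had received a monoclonal antibody against mouse EpCAM, a surface adhesion protein of epithelial cells, at 100 µg/ml for 48 h. The lungs came from non-transgenic C57BL/6 mice, 8 labelled female and 8 labelled male, whose ages are not given in the labels. The promoter that drove the transgenes is not given either, no unsorted cells of the line were measured, and a single line limits the cells as a model. Whole lung is a mixture, so a lower level in the cells cannot be split into fewer cells of a type and less RNA per cell. The labels call the samples biological replicates, and for the cells p-values measure the spread between preparations of this line only.

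Array means ranged from 291 to 304 in the cells and from 270 to 313 in the lungs, and array medians, which did not overlap, from 39.4 to 40.7 in the cells and from 47.9 to 54.6 in the lungs. Replicate arrays correlated at 0.969 to 0.982 in antibody-treated cells, 0.980 to 0.987 in untreated cells, 0.979 to 0.994 in female lungs and 0.953 to 0.992 in male lungs, across genes that are not independent replicates. A bacterial spike control, dap, read 222 to 419 in the cells and 0.360 to 6.32 in the lungs, so labelling and group cannot be told apart. In 2 lungs labelled male (replicates 3 and 4), the sex-linked genes Xist and Uty went against the label. Leukocyte markers were nearly lacking in the cells: the sum of 10 of them read 110 to 177 in antibody-treated cells and 87.8 to 169 in untreated cells, against 11557 to 17917 in lung, with Ptprc, Tyrobp and Cd3e among 8 that were below the filter on all 6 cell arrays. Lung epithelial markers were as low (97.3 to 125 and 73.7 to 87.9, against 44142 to 56122 in lung). Sftpb, Cldn18, Scgb1a1 and Cyp2f2 were below the filter on all cell arrays. Fibroblast and smooth muscle markers were not lacking, at sums of 9713 to 10973 and 8837 to 10427, against 11671 to 19926 in lung. Of these 6, by the rule given below, Col1a1 was called higher in each cell group, 3 were called lower and 2 were not called. Myh11, among the 3, was below the filter on all cell arrays and could only be called lower, so it adds no support to that count. All 5 markers of dividing cells measured, among them Top2a and Birc5, were higher in the cells, with sums of 5987 to 13142, 9149 to 12474 and 238 to 1090 in antibody-treated cells, untreated cells and lung. Their part in the results was not tested.

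The genes of Psmb9 and Psmb8 lie in the MHC class II region of chromosome 17, interleaved with Tap1 and Tap2, which encode the pump that carries peptides into the endoplasmic reticulum. In the RefSeq table (build GRCm38.p6) the 300-base windows around the starts of Psmb9 and Tap1 run in opposite directions and share 275 bases, so the first sequence is the promoter of both genes, and it is shown because both genes were lower in the cells. The second is the start region of Psmb8. Capitals mark the motifs found: the CCAAT box (read here on the opposite strand) in Psmb9, and the gamma-interferon activated site TTCNNNGAA in Psmb8. Both give the 250 bases before the start, at chr17:34187331-34187580 on the minus strand and chr17:34197945-34198194 on the plus strand.
Psmb9: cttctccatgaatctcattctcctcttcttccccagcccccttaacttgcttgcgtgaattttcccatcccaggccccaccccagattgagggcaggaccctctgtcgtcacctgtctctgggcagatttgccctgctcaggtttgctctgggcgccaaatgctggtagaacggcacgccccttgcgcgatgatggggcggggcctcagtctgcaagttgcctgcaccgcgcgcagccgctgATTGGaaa
Psmb8: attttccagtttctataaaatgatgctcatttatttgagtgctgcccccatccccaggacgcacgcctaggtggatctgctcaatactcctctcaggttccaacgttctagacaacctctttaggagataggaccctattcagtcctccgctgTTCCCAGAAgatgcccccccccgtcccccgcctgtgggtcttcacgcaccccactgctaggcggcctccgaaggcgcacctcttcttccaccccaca

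For comparison, the constitutive partners of these subunits hold the antioxidant response element TGACNNNGC, the motif read by NRF1 (Nfe2l1), the main activator of proteasome genes, just before their starts. The stretches lie at chr14:54618019-54618057 on the minus strand for Psmb5 and chr11:70525333-70525371 on the plus strand for Psmb6, and capitals mark the motif.
Psmb5: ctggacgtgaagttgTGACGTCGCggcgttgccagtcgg
Psmb6: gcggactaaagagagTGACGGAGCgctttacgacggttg

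Windows of 300 bases were present for 35 members, and both strands were searched. TGACNNNGC was in 6 of 35 (Psmb5, Psmb6, Psmc6, Psmd9, Psmd12 and Psme4), against 12.4% of all 32851 windows. TTCNNNGAA was in 2 (Psmb8 and Psmd2), against 8.30% of all windows, and CCAAT was in 13, against 37.4%. The interferon regulatory factor motif, a pair of GAAA half-sites 2 bases apart, was in Psmb3, Psmd4, Psmd9 and Psme1, against 3.44% of all windows, and the NF-kappaB motif, GGG followed after 2 bases by TTTCC, was in none, against 1.63%. These are matches of letters only.

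The comparison of each cell group with lung asked how the proteasome genes of the sorted tumour cells differed from those of normal lung. The 3 catalytic subunits of the immunoproteasome were lower in the cells, Psmb8 and Psmb9 by far the most, while most structural subunits of the core and cap were somewhat higher. A gene was called when its limma adjusted p (Benjamini-Hochberg over all genes tested) was under 0.05 and its change at least 2-fold. In antibody-treated cells, 16 of the 40 members were called (12 higher, 4 lower), against 41.1% of all 15138 genes tested, 17.2% higher and 23.9% lower. In untreated cells the count was also 16 (12 higher, 4 lower), against 41.6% of 15197 genes, 17.8% higher and 23.8% lower. Psmb8 in each comparison, and Psmb9 in untreated cells, passed the filter only with the help of the lungs. They are among the lower members and add no support to those counts. With arrays centred on their medians, 22 members were called in each comparison (19 higher, 3 lower), against 42.3% of genes in antibody-treated cells and 42.9% in untreated cells. When probe sets were averaged, 11 were called in each (7 higher, 4 lower), against 36.3% and 36.6% of genes. Both comparisons use the same 16 lungs, so each one's values are given side by side.

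Most changes in the structural members were of less than 2-fold. On the adjusted p alone, 39 of 40 members passed in antibody-treated cells, against 81.0% of all genes, and 38 passed in untreated cells, against 81.8%. The estimate was positive for 32 of 40 members in each comparison, against 49.7% and 50.3% of all genes. The median log2 change of the members was 0.63 in antibody-treated cells and 0.68 in untreated cells, against medians of -0.01 and 0.01 over all genes. On the deposited intensities, the antibody-treated arrays lay wholly above the 16 lungs for 25 members (24.9% of all genes) and wholly below them for 5 (36.9%), or 61.8% of genes in either direction. The untreated arrays lay above them for 30 members (27.3% of all genes) and below them for 7 (37.3%), or 64.6% in either direction.

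**Figure D1:**
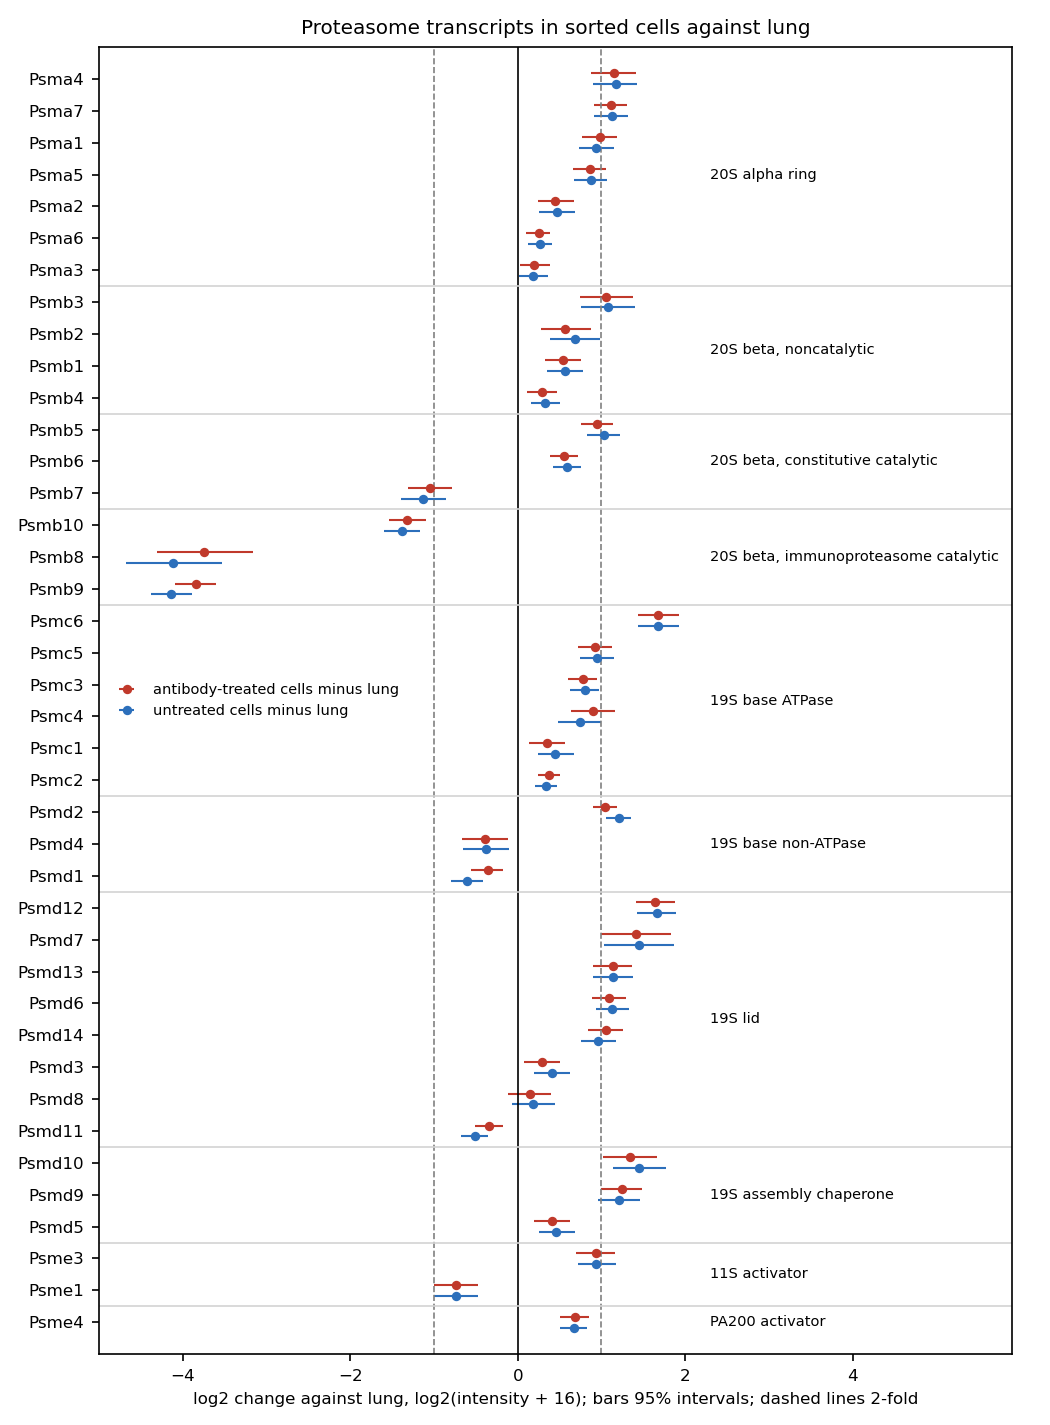
Log2 change of each of the 40 members against lung, on log2(intensity + 16) after quantile normalization. Points are limma estimates for antibody-treated (red) and untreated (blue) cells, bars are 95% intervals, dashed lines mark 2-fold, and members are grouped by role. Psmb8 and Psmb9 stand far to the left at -3.74 to -4.14, and most structural subunits lie between 0 and 1.7.

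The alpha ring forms the gate of the core. Psma4 read 2505, 1932 and 3175 in antibody-treated cells and 3032, 2393 and 2335 in untreated cells, against a lowest, median and highest lung of 597, 1119 and 1330. All cell arrays were above all lungs, and the log2 change was 1.15 ± 0.13 in antibody-treated cells and 1.17 ± 0.13 in untreated cells (SE, n = 3 against 16, limma adjusted p = 1.52e-08 and 1.15e-08). Without antibody-treated replicate 3 it was 1.00, just short of 2-fold. Psma3 changed least of the alpha ring, with 3427, 3138 and 3223 in antibody-treated cells and 3253, 3191 and 3299 in untreated cells, against 1793, 2749 and 3052 in lung. All cell arrays of Psma3 were again above the lungs, by a log2 difference of 0.20 and 0.18 (limma adjusted p = 0.0330 and 0.0508). Only Psma4 and Psma7 (log2 1.11 and 1.12) of the 7 alpha subunits were called in each comparison. Over all genes, 17.2% were called higher in antibody-treated cells and 17.8% in untreated cells. All 7 alpha estimates were positive in both comparisons.

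Of the 4 beta subunits without a catalytic site, Psmb3 alone was called (higher, against 17.2% and 17.8% of all genes). It read 2831, 1768 and 3182 in antibody-treated cells and 3000, 2439 and 2386 in untreated cells, against 832, 1199 and 1505 in lung, with no overlap. The log2 change was 1.06 ± 0.15 and 1.08 ± 0.15 (SE, limma adjusted p = 1.08e-06 and 8.36e-07), and it was 0.71 and 0.67, no longer called, as the mean of its probe sets. Without antibody-treated replicate 1 or 3 it was 0.99 and 0.91. On the chosen probe sets Psmb4 changed least, by 0.29 and 0.33 on the log2 scale, with 3398, 2665 and 3683 in antibody-treated cells and 3677, 3256 and 3116 in untreated cells, against 2173, 2512 and 2878 in lung, where antibody-treated replicate 2 overlapped the lungs. A second probe set of Psmb4, of the cross-hybridizing type, gave 0.92 and 0.79, so this ranking rests on the probe set.

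The constitutive catalytic subunits did not move together. Psmb5, the chymotrypsin-like subunit, read 3262, 2901 and 3454 in antibody-treated cells and 3673, 3322 and 3264 in untreated cells, against 985, 1624 and 1830 in lung. All cell arrays were above all lungs, and the log2 change was 0.95 ± 0.09 (below 2-fold) in antibody-treated cells and 1.03 ± 0.09 in untreated cells (SE, limma adjusted p = 2.07e-09 and 4.73e-10). These values lie on either side of the 2-fold line. The untreated call was lost, at a log2 change of 1.00 just short of 2-fold, without untreated replicate 1 or without male lung 2, and at 0.99 with array weights. In antibody-treated cells Psmb5 was called at 1.00 without replicate 2, 1.01 without normalization, 1.07 with the replicate number as a block and 1.29 with median centring.

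Psmb6, the caspase-like subunit, read 2998, 2333 and 3112 in antibody-treated cells and 2944, 2865 and 3026 in untreated cells, against 1525, 1832 and 2085 in lung. It was above all lungs on all cell arrays but under 2-fold, at 0.55 ± 0.08 and 0.59 ± 0.08 (SE, limma adjusted p = 1.58e-06 and 5.16e-07). Psmb7, the trypsin-like subunit, was lower, with 1110, 645 and 1075 in antibody-treated cells and 1117, 818 and 738 in untreated cells, against 1489, 1860 and 2497 in lung. No cell array reached the lowest lung, and the log2 change was -1.05 ± 0.13 and -1.13 ± 0.13 (SE, limma adjusted p = 6.30e-08 and 2.00e-08). Psmb7 fell short of 2-fold when arrays were centred on their medians (-0.78 and -0.85) and, in antibody-treated cells, without replicate 2 (-0.83) or with array weights (-0.81).

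The immunoproteasome subunits were the members with the lowest values against lung. Psmb8, the counterpart of Psmb5, read 151, 44.1 and 13.0 in antibody-treated cells and 58.8, 24.3 and 26.0 in untreated cells, against 685, 979 and 1232 in lung. The cell groups overlapped each other, and the highest cell array was below the lowest lung. The log2 change was -3.74 ± 0.28 in antibody-treated cells and -4.11 ± 0.28 in untreated cells (SE, limma adjusted p = 9.94e-12 and 1.65e-12). In the cells it was above the filter, which stood at an intensity of 29.9 after normalization, on 2 of 3 arrays of each group. A gene needed 3 arrays above the filter, so Psmb8 entered both comparisons only with the help of the lungs, where it is high. Its p-values and calls therefore add no support. The size of the fall also depends on the offset: it was -2.99 and -3.27 with an offset of 64 and -4.19 and -4.56 with an offset of 1. Leaving out antibody-treated replicate 1 gave -4.40, and leaving out replicate 3 gave -3.12. A second probe set of Psmb8, of the cross-hybridizing type, gave -1.46 and -2.18.

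Psmb9, the counterpart of Psmb6, read 49.9, 26.3 and 34.9 in antibody-treated cells and 31.2, 23.9 and 26.8 in untreated cells, against 637, 785 and 1113 in lung. All cell arrays were far below all lungs. The log2 change was -3.84 ± 0.12 and -4.14 ± 0.12 (SE, limma adjusted p = 3.88e-19 and 8.53e-20), on 3 and 2 of 3 arrays above the filter. In untreated cells Psmb9 too entered the test only with the help of the lungs, so that p-value and call add no support. The change was -3.06 and -3.22 with an offset of 64, against -4.25 and -4.66 with an offset of 1. Psmb10, the counterpart of Psmb7, fell less, with 385, 227 and 353 in antibody-treated cells and 292, 286 and 321 in untreated cells, against 742, 857 and 1119 in lung. It too was below all lungs on all cell arrays, with a log2 change of -1.32 ± 0.10 and -1.38 ± 0.10 (SE, limma adjusted p = 3.50e-11 and 1.49e-11).

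**Figure D2:**
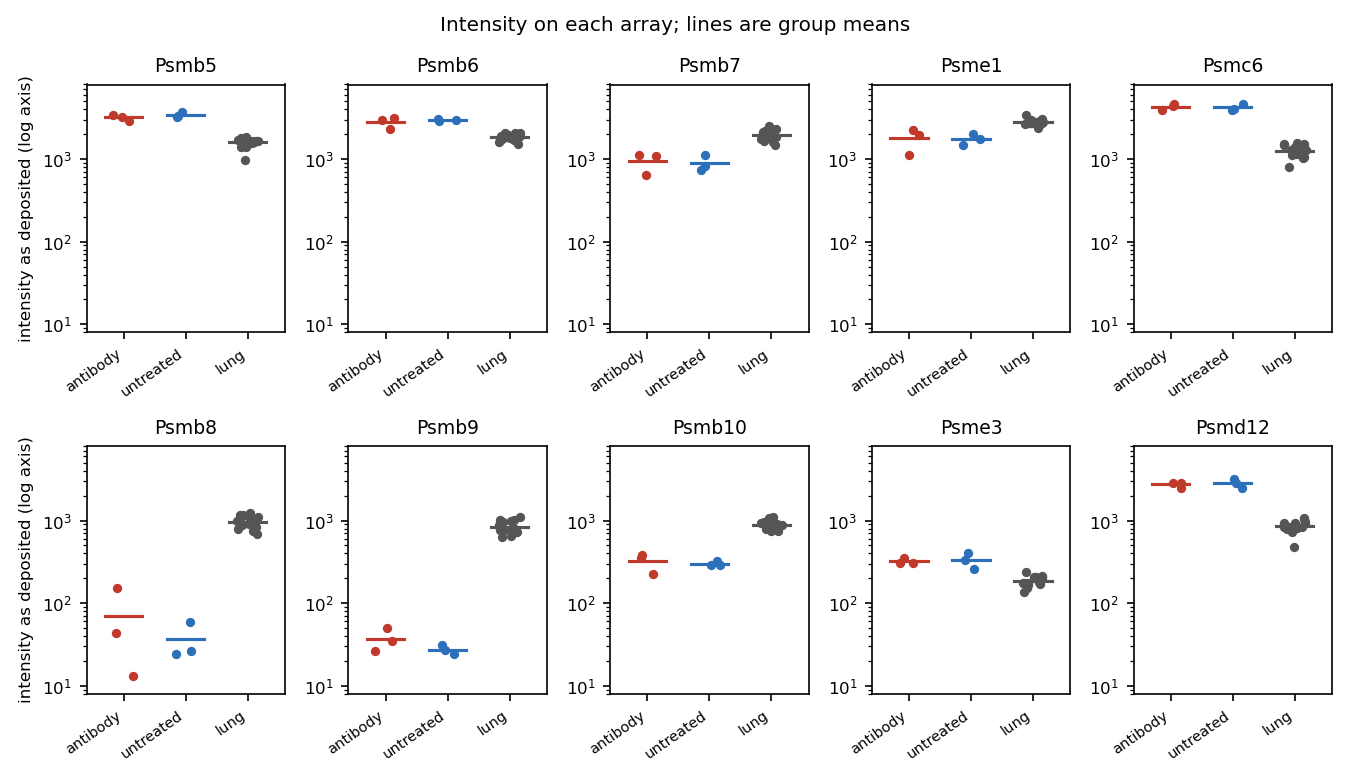
Deposited intensity (log axis) of 10 members on each array of antibody-treated cells, untreated cells and lung, with a line at each group's mean. Psmb8 ranges from 13.0 to 151 in the 6 cell samples and from 685 to 1232 in the 16 lungs. Psmb5 and Psmc6 lie above the lungs on all cell arrays.

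Each immunoproteasome subunit was also set against its partner within an array, as a difference on the normalized log2(intensity + 16) scale. The difference between 2 probe sets has no absolute meaning, and only its change between groups is given. Psmb8 over Psmb5 was lower than in lung by a log2 difference of -4.69 in antibody-treated cells and -5.13 in untreated cells. Psmb9 over Psmb6 was lower by -4.39 and -4.73. As log2 ratios of the deposited intensities, without offset or normalization, these changes were -5.46 and -5.96 for Psmb8 over Psmb5 and -5.15 and -5.62 for Psmb9 over Psmb6. Psmb10 over Psmb7 moved by -0.27 and -0.26, and the ranges overlapped the lungs, at -1.45 to -1.32 in antibody-treated cells and -1.70 to -1.06 in untreated cells, against -1.50 to -0.76 in lung. As ratios of the deposited intensities this change was -0.42 in both, and the antibody-treated arrays (-1.61 to -1.51) then lay just below the lungs (-1.50 to -0.73), while the untreated arrays (-1.94 to -1.20) overlapped them. The overlap on the normalized scale came from lungs numbered 1 to 4, at -1.50 to -0.97, while those numbered 5 to 8 of both sexes lay at -1.03 to -0.76, above all cell arrays. Against lungs 1 to 4 alone the change was -0.06 in antibody-treated cells and -0.05 in untreated cells, and against lungs 5 to 8 alone it was -0.48 and -0.47. Psmb10 itself did not overlap between these lungs within a sex. In lungs 5 to 8 it read 906 to 1119 in female and 832 to 962 in male. In lungs 1 to 4 it read 804 to 881 and 742 to 801. In female lungs Psmb7 went the other way, at 1809 to 1879 in lungs 5 to 8 against 2101 to 2497, and in male lungs it overlapped. Other members split in the direction of Psmb10 in both sexes. Psmc6 did so, at 1303 to 1505 in female and 1303 to 1544 in male lungs 5 to 8. Its lungs 1 to 4 read 1040 to 1155 and 806 to 1259. Psmc1, Psmc3, Psmd1, Psmd4 and Psmd6 did so too, while Psmb8 and Psmb9 overlapped in both sexes. The share of all genes that split in this way was not worked out, so the split cannot be read as particular to these members. The labels do not say whether the numbers mark a batch. In the pair of Psmb10 and Psmb7 both subunits were lower in the cells.

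**Figure D3:**
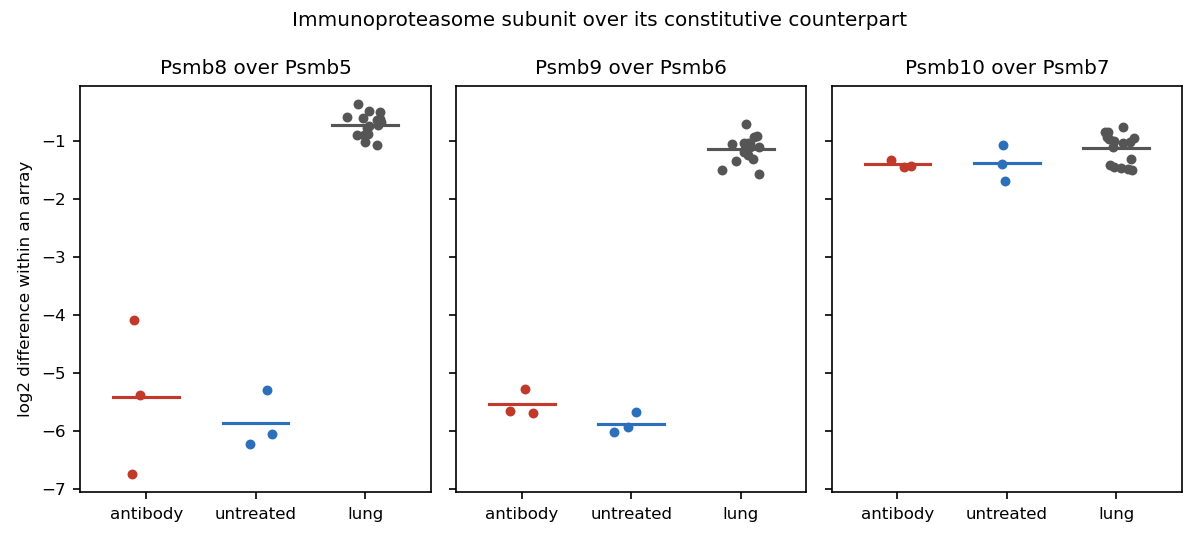
Log2 difference, on normalized log2(intensity + 16), between each immunoproteasome subunit and its constitutive counterpart on each array of antibody-treated cells, untreated cells and lung, with group means as lines. Only the distance between groups can be read. Cells and lung are apart for Psmb8 over Psmb5 and Psmb9 over Psmb6 and overlap for Psmb10 over Psmb7.

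The 6 ATPases of the 19S base thread the substrate into the core. Psmc6 had the highest change of all 40 members, with 4600, 4442 and 3912 in antibody-treated cells and 4704, 3894 and 4093 in untreated cells, against 806, 1281 and 1544 in lung. All cell arrays were above all lungs, and the log2 change was 1.68 ± 0.12 in both cell groups (SE, limma adjusted p = 2.34e-12 and 2.28e-12). Psmc6 was the only ATPase of the 6 called, against 17.2% and 17.8% of all genes called higher. The other 5 were higher on the adjusted p at 0.34 to 0.95 over both comparisons. At the low end Psmc2 read 1827, 1812 and 1975 in antibody-treated cells and 2031, 1732 and 1910 in untreated cells, against 1211, 1447 and 1638 in lung, with log2 changes of 0.37 and 0.34.

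The base also holds 3 subunits with no ATPase. Psmd2, a scaffold and ubiquitin-binding subunit, was called at 1.04 ± 0.07 and 1.21 ± 0.07 (SE, limma adjusted p = 1.97e-12 and 1.17e-13), with 2298, 2529 and 2816 in antibody-treated cells and 2657, 2786 and 3358 in untreated cells, against 1070, 1177 and 1366 in lung. All its cell arrays were above the lungs. The mean of its probe sets gave 0.52 and 0.72, but this takes in a probe set too dim to be tested. That probe set read 4.15 in antibody-treated cells, 7.19 in untreated cells and 5.43 in lung, as means. With the chosen probe set, the antibody-treated value was 0.99 without replicate 3 and 0.95 with array weights. Psmd1, the other large scaffold, was lower at -0.36 and -0.60 and was not called. It read 955, 922 and 1186 in antibody-treated cells and 732, 983 and 874 in untreated cells, against 1030, 1266 and 1544 in lung, and antibody-treated replicate 3 overlapped the lungs. Psmd4, a ubiquitin receptor, gave -0.39 and -0.38, while its other probe sets were higher, one at 0.36 and 0.46 and the other at 0.80 and 0.86.

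The 19S lid removes ubiquitin from the substrate. Psmd12 was the member with the largest change in the lid, with 2853, 2502 and 2867 in antibody-treated cells and 3182, 2446 and 2823 in untreated cells, against 480, 843 and 1076 in lung. All cell arrays were above all lungs, at log2 changes of 1.64 ± 0.11 and 1.66 ± 0.11 (SE, limma adjusted p = 1.89e-12 and 1.59e-12). Of 8 lid subunits, 5 were called in antibody-treated cells (Psmd6, Psmd7, Psmd12, Psmd13 and the deubiquitinase Psmd14) and 4 in untreated cells. All of these were higher, a call made for 17.2% and 17.8% of all genes. Psmd14 was 1.05 in antibody-treated cells and 0.96, short of 2-fold, in untreated cells. Psmd11 was lower and not called, at -0.34 and -0.51, with 1934, 1554 and 2282 in antibody-treated cells and 1827, 1891 and 1461 in untreated cells, against 2134, 2388 and 2580 in lung. The largest antibody-treated value overlapped the lungs.

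The 3 chaperones that assist the base before it joins the cap were higher. Psmd10 (gankyrin) read 672, 441 and 659 in antibody-treated cells and 703, 662 and 559 in untreated cells, against 126, 248 and 332 in lung. It was above all lungs on all cell arrays, at 1.34 ± 0.15 and 1.45 ± 0.15 (SE, limma adjusted p = 2.33e-08 and 5.65e-09). Psmd9 was called as well, at 1.24 and 1.21. Psmd5 was not, at 0.41 and 0.46, with 686, 706 and 581 in antibody-treated cells and 834, 627 and 635 in untreated cells, against 412, 527 and 639 in lung, and both cell groups overlapped the lungs.

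The activators differed in direction on the probe sets used here. Psme1, the PA28 alpha subunit that interferon induces and that pairs with Psme2, read 2275, 1122 and 1965 in antibody-treated cells and 2000, 1758 and 1487 in untreated cells, against 2381, 2765 and 3464 in lung. No cell array reached the lowest lung, and the log2 change was -0.74 ± 0.13 in both, under 2-fold (SE, limma adjusted p = 1.04e-05 and 9.74e-06). Psme3, the nuclear PA28 gamma, was higher at 0.93 ± 0.11 and 0.94 ± 0.11 (SE, limma adjusted p = 3.97e-08 and 3.14e-08), with 307, 351 and 306 in antibody-treated cells and 409, 256 and 332 in untreated cells, against 136, 184 and 236 in lung. Its other probe set gave -0.75 and -0.74 with adjusted p of 0.0707 and 0.0752, so the direction for Psme3 rests on the probe set. The first probe set passed 2-fold with median centring, at 1.02 and 1.04, and in untreated cells at 1.00 with an offset of 1 and 1.10 without replicate 2. Psme4, which encodes PA200, was higher by 0.68 and 0.67. It read 1054, 1231 and 1137 in antibody-treated cells and 1126, 1106 and 1217 in untreated cells, against 631, 700 and 854 in lung. Another probe set of Psme4, dim in lung at a mean of 30.9, gave -0.59 and -0.66, while the rest that were tested were higher.

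Several members have more than 1 probe set, and these did not always move together. Of the 40 members, 18 had 1 probe set and 22 had several, with 46 others in all. In untreated cells, 29 of the 38 other probe sets that were tested had the sign of the chosen one and 9 had the opposite sign, in 7 genes. They included Psmd13 (1.14 for the chosen one and -1.41 for another), Psmd7 (1.45 and -0.30), Psmd9 (1.21 and -0.13) and Psmd11 (-0.51 and 1.05). These opposite probe sets of Psmd7, Psmd9, Psmd11 and Psmd13 were dim in lung, at mean intensities of 29.0, 35.1, 25.8 and 49.4. Another opposite probe set of Psmd11 was bright, at means of 1942 in untreated cells and 1193 in lung, with a log2 change of 0.65.

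**Figure D4:**
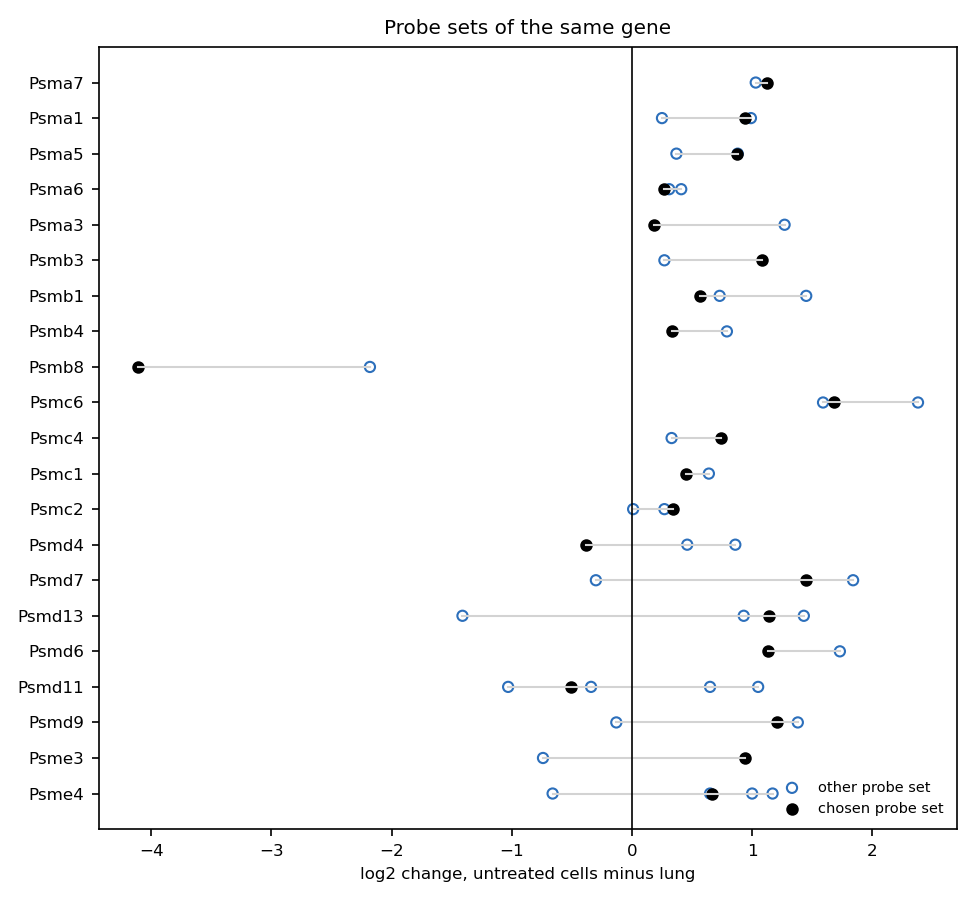
Log2 change, untreated cells minus lung, for each tested probe set of the members that have several. Filled points are the probe sets used in the text and open points the others. Psmd4, Psmd7, Psmd9, Psmd11, Psmd13, Psme3 and Psme4 have probe sets on both sides of 0.

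The lists that go with the proteasome show how its makers and controllers stood in the same comparisons. Over all genes, 17.2% were called higher and 23.9% lower in antibody-treated cells, and 17.8% and 23.8% in untreated cells. Of 5 chaperones that assemble the 20S core, Psmg1, Psmg2 and Psmg3 were higher, at log2 changes of 1.21, 1.29 and 1.22 in antibody-treated cells and 1.18, 1.37 and 1.21 in untreated cells. Pomp, which completes the core, was not called at -0.33 and -0.35. Of 13 associated factors and ubiquitin receptors measured, only the deubiquitinase Usp14 was called, at 1.08 and 1.21. Of 6 genes of the p97 unfolding machine, only Ufd1 was called, at 1.77 and 1.79. Of 7 genes of the NRF1 axis, Mafg and Maff, small partners of NRF1 and NRF2, were called higher (2.31 and 1.94 in antibody-treated cells, 2.14 and 1.77 in untreated cells), and Nfe2l2, which encodes NRF2, was called lower at -1.62 and -1.75. Nfe2l1, which encodes NRF1 itself, was -0.19 and -0.22, and neither passed the test (adjusted p = 0.0882 and 0.0506). Uba6, the only ubiquitin-activating gene analysed here, was 0.07 and 0.06 and was not called.

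Of the 11 genes of the interferon axis tested, 6 were lower in each cell group and none was higher, against 23.9% of all genes called lower in antibody-treated cells and 23.8% in untreated cells. Nlrc5, the activator of MHC class I genes, read 9.20, 15.7 and 7.14 in antibody-treated cells and 10.2, 11.1 and 9.75 in untreated cells, against 128, 212 and 271 in lung. Irf8, a factor of leukocytes, read 7.45 to 18.5 in antibody-treated cells and 12.6 to 16.6 in untreated cells, against 590 to 914 in lung. Both were below the filter on all cell arrays, so their folds are not given. Nlrc5 and Irf8 entered the test through the lungs alone and could only be called lower. They are among the 6 and add no support to that count. Jak1, a kinase of the interferon receptors, was lower by -2.04 and -2.10, and Irf2 by -1.84 and -2.10. Irf1, the factor through which interferon induces the immunoproteasome genes, was not called, at -0.35 and -0.38, and read 1422, 1560 and 887 in antibody-treated cells and 1945, 1114 and 896 in untreated cells, against 1157, 1629 and 1994 in lung. Ifng itself was below the filter.

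Of 11 genes that load peptides onto MHC class I or form it, 7 were lower in each cell group, against the same 23.9% and 23.8% of all genes. Tap1, which shares its start region with Psmb9, read 132, 116 and 139 in antibody-treated cells and 85.1, 113 and 105 in untreated cells, against 292, 386 and 499 in lung. All cell arrays were below all lungs, by log2 differences of -1.25 ± 0.13 and -1.53 ± 0.13 (SE, limma adjusted p = 5.94e-09 and 1.69e-10). B2m, the light chain of MHC class I, was lower at -1.59 and -1.71, H2-K1 was lower at -3.37 and -3.36, and H2-D1 at -1.79 and -1.85. Canx, a chaperone of the endoplasmic reticulum, was called higher at 1.03 in antibody-treated cells and was 0.96, not called, in untreated cells. Psma8 and Psmb11, subunits of testis and thymus, were below the filter in all comparisons.

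The antibody comparison asked whether anti-EpCAM changed the members within the line. No member was called, against 0.0236% of 12711 genes (3), and none had an unadjusted p under 0.05, against 0.740% of genes (94). The median log2 difference of the members was -0.01, against -0.02 over all genes, and no member's antibody-treated arrays lay wholly apart from its untreated arrays, against 3.26% of genes. The 95% intervals lay within 2-fold for 39 of 40 members, against 97.3% of genes. The exception was Psmb8, at 0.37 ± 0.56 (SE, interval -0.91 to 1.65, unadjusted p = 0.530 by limma, n = 3 each). Its antibody-treated arrays (151, 44.1 and 13.0) spread wider than its untreated arrays (58.8, 24.3 and 26.0), with a standard deviation of 1.28 and 0.55 on the log2 scale. Leaving out antibody-treated replicate 1 turned the difference to -0.29, leaving out replicate 3 gave 0.98, and array weights gave 1.58, none of them called.

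The members with the smallest p-values were Psmb9, Psmd1 and Psmd2. Psmb9 was 0.30 ± 0.20 (interval -0.15 to 0.74, unadjusted p = 0.167 by limma). Psmd1 was 0.24 ± 0.16 (unadjusted p = 0.168 by limma) and Psmd2 was -0.16 ± 0.13 (unadjusted p = 0.233 by limma). The adjusted p was 1.00 for all members in limma, and these values do not show that the groups are alike. Psmb5, Psmb6, Psmb7 and Psmb10 were -0.08, -0.04, 0.07 and 0.06, and Psme1, Psme3 and Psme4 were 0.00, -0.01 and 0.01. None of the 5 core chaperones, 13 associated factors, 7 NRF1 axis genes or 11 MHC class I genes was called either. Tap1 was 0.28, with its antibody-treated arrays (116 to 139) wholly above its untreated arrays (85.1 to 113). Those of Vcp, of the p97 genes, lay wholly below (2418 to 2793 against 2841 to 3012). Over all genes, 3.26% separated in either direction.

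**Figure D5:**
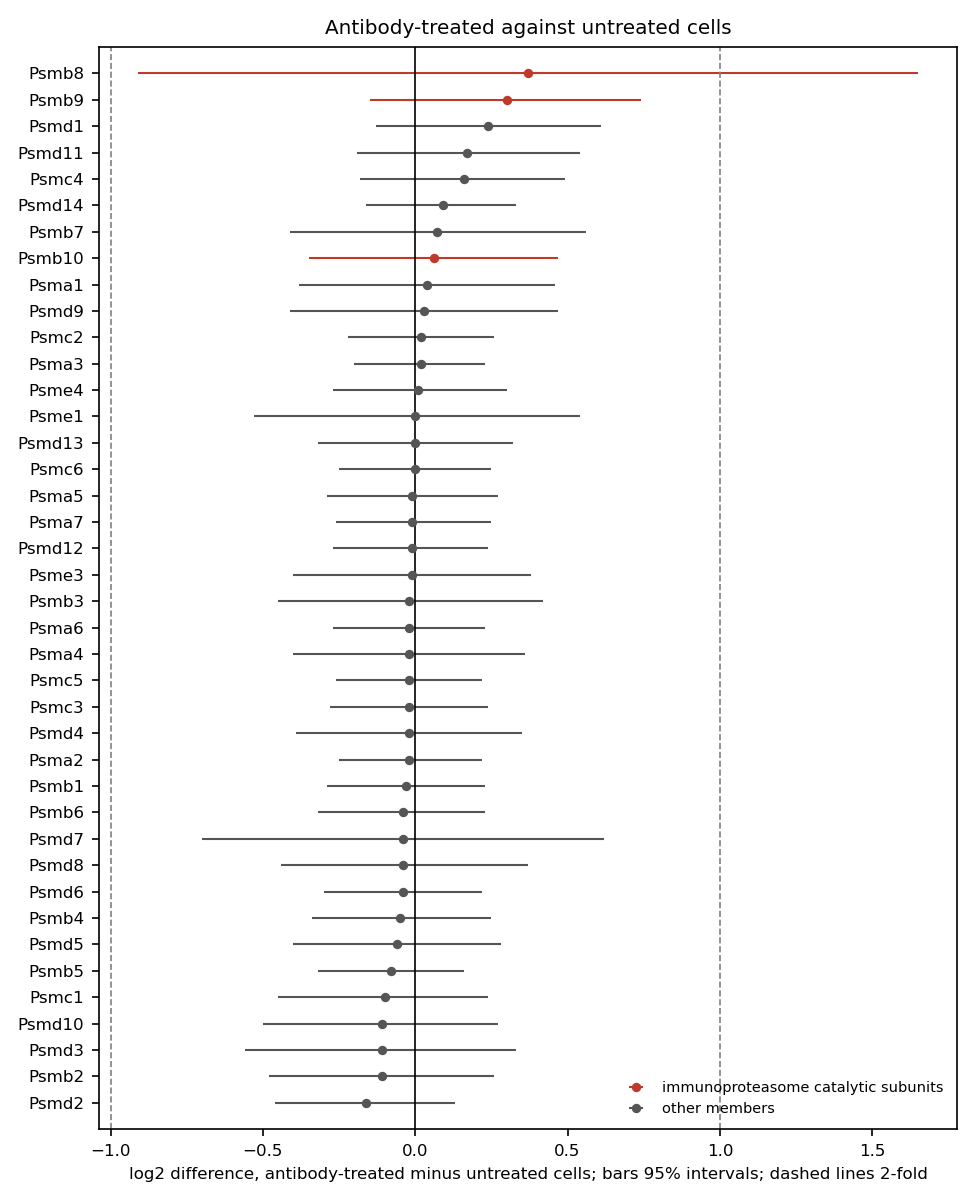
Log2 difference of each of the 40 members, antibody-treated minus untreated cells, with 95% intervals (limma on the 6 cell arrays). Dashed lines mark 2-fold. Psmb8 has the widest interval, -0.91 to 1.65, and all intervals include 0.

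The spread within a group was at or below that of all genes. The median standard deviation on the log2 scale was 0.18 in antibody-treated cells and 0.12 in untreated cells, against 0.19 and 0.16 over all genes, and 0.15 in female lungs and 0.16 in male lungs, against 0.16 and 0.22. Among the 6 cell arrays, antibody-treated replicate 2 was the lowest for 25 of 40 members on the deposited intensities (62.5%), against 25.6% of all genes tested, and for 23 (57.5%) after normalization, against 23.0%. It was the highest for 1. The untreated arrays were the lowest for 1, 8 and 1 members. The members most spread within lung were Psmd7 and Psmb3.

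Female and male lungs were compared to see how alike the lungs of the common comparison are. No member was called, against 0.0486% of 14392 genes (7), and 6 had an unadjusted p under 0.05, against 10.6% of genes. The 4 higher in female lungs (5.45% of all genes) were Psmb9, Psmb8, Psmb7 and Psmb10, and the 2 lower (5.12%) were Psmd2 and Psmd5. Psmb9 had the lowest p, with a log2 difference of 0.33 ± 0.08 (SE, n = 8 each, limma adjusted p = 0.117), followed by Psmb8 at 0.29 ± 0.09 (limma adjusted p = 0.230). No member separated female from male lungs, against 0.125% of genes. Without the 2 lungs whose sex-linked genes go against their label, the differences were 0.28 for Psmb9 and 0.35 for Psmb8, with limma adjusted p of 0.160 and 0.0967.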

How the data were processed

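The deposited table holds linear intensities, 1 per probe set and array, which the authors made with PLIER, per the submitters' processing notes. Its version and settings, and whether arrays were scaled to each other, are not given in the sources used here. Precision is limited by the number of arrays.

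The 64 control probe sets were left out, and symbols came from the platform annotation: 34945 of the other probe sets had 1 symbol, 932 had several and 9160 were unlisted here. Deposited intensities were transformed as log2(intensity + 16) and quantile normalized. Genes were tested if 3 or more arrays of a comparison had them above that array's 40th percentile. All 40 members passed in every comparison, 38 of them on all arrays. The tests were those of limma 3.58.1 under R 4.3.3 (variance trend, two-sided, Benjamini-Hochberg at 0.05). Cells were set against the average of female and male lung, all 22 arrays being in the fit, with a change of at least 2-fold required. The antibody comparison used the 6 cell arrays and the sex comparison the 16 lungs. The fits were tested on simulated data.

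Log2 changes are on the log2(intensity + 16) scale, which understates changes of dim genes, and SE are those of the model. The catalytic subunits, the activators and the members with the highest and lowest change in each other class were named in every comparison, with the members of smallest p for the antibody comparison. The members, lists and rules were chosen with earlier results of these data known. From the other lists, up to 2 called genes in each direction were named, and Nfe2l1, Pomp, Irf1, Nlrc5, Tap1 and B2m whatever their value. Other genes were named after their values were seen.

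Same-numbered antibody-treated and untreated arrays deviated from their group means together at r = 0.07, -0.26 and 0.07, so the numbers were not taken as pairs.

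The alternatives were median centring or no normalization, offsets of 1 and 64, other filters, averaging the probe sets of a gene, no variance trend, array weights, a replicate block, other sets of arrays, no fold requirement and leaving out each cell array. Settings chosen after seeing the data left out the lungs whose sex-linked genes go against their label, left out male lung 2, used all probe sets as features, or took the subunit pairs on deposited intensities or against lungs 1 to 4 or 5 to 8 alone. Promoter windows and gene order came from RefSeq, build GRCm38.p6.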

Additional observations from a re-analysis of the deposited data

Results flagged for a closer look

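For each member, the 8 female and the 8 male lungs were examined for a highest or lowest value that stands apart by Dixon's 95% critical value, on the normalized log2(intensity + 16) scale, on which the values below are given. This was so in 6 of 80 sets, and chance alone gives about 1 in 20. All 6 came from male lungs 2 and 4. Male lung 2 was low for Psmc3, at 10.07 against 10.30 to 10.51 in the other 7, for Psmd10, at 7.27 against 7.76 to 8.19, and for Psmd7, at 7.69 against 8.46 to 8.90. Male lung 4, one of those whose sex-linked genes go against the label, was high for Psmb4, at 11.47 against 11.22 to 11.34, for Psmd13, at 8.93 against 8.46 to 8.63, and for Psmd5, at 9.42 against 8.89 to 9.14.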

How the results depend on the processing

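No change of a named member reversed as a called value under any setting run. Values that were not called could change sign: Psme3 in untreated cells against lung was 0.94, and -0.04 as the mean of its probe sets. The number of members called without the 2-fold requirement was 39 in antibody-treated cells and 38 in untreated cells against lung, when 81.0% and 81.8% of all genes were called. With array weights, 2 members were called between female and male lungs, against 0.549% of all genes. They were Psmb8 at 0.38 (limma adjusted p = 0.0373) and Psmb9 at 0.36 (0.0153). Leaving out each cell array in turn gave 14 to 17 members in antibody-treated cells, against 40.0% to 40.3% of all genes. It gave 15 to 18 in untreated cells, against 40.2% to 40.9%, and 0 in the antibody comparison, against 0% to 0.0239%. With the replicate number as a block, 19 members were called in each comparison with lung, against 41.6% of all genes in antibody-treated cells and 41.9% in untreated cells. With this block, 0 members were called in the antibody comparison (0.0157% of genes) and 0 between the sexes (0.00695%). The block changed no other call of a named member except Psmb5 in antibody-treated cells, called at 1.07. The median log2 change of all genes was -0.01 in antibody-treated cells and 0.01 in untreated cells, against -0.18 and -0.15 without normalization and 0.09 and 0.12 with median centring, and higher genes made up 41.8% and 42.8% of the calls, against 34.6% and 35.2% without normalization and 47.7% and 48.5% with median centring. In both comparisons, 19 members were higher and 3 lower with median centring, 14 and 4 without normalization, and 7 and 4 with the mean of probe sets. The shares of all genes called in antibody-treated and untreated cells were 42.3% and 42.9%, 41.2% and 41.4%, and 36.3% and 36.6% in turn. With the mean of probe sets, higher genes made up 45.4% and 46.1% of the calls. Calls over all genes between the sexes numbered 7, but 79 with array weights, 45 without the 2 lungs that go against their label, 24 with the 60th percentile filter, 18 without male lung 2, 15 with median centring, 10 with the mean of probe sets, 4 without a filter or without a variance trend, 1 with the block and 32 with all probe sets as features. In the antibody comparison they numbered 3 against 0 to 4 under the settings run.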
